A study of Bos taurus with 6 samples.

Results

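The SOCS and STAT genes of cytokine signalling were measured in whole blood of fat-1 transgenic and wild type cattle at every array probe whose gene name, or bracketed symbol in its description, was SOCS1, SOCS2, SOCS3, CISH, STAT3, STAT4, STAT5A, STAT5B, STAT6 or PIM1. These are 10 of the 15519 genes that the array names by a RefSeq symbol, measured by 19 of its 43653 probes besides controls, and each probe was compared separately. The 3 fat-1 animals were female cattle carrying the fat-1 transgene, replicate 1 aged 3.5 years and the other two 3 years, and the 3 wild type animals were female and aged 3 years. Jugular vein blood of each animal was run on 1 one-colour bovine array. Fat-1 is a desaturase gene named in the nematode Caenorhabditis elegans, whose enzyme makes omega-3 from omega-6 fatty acids. The promoter of the transgene and whether the transgenic animals descend from 1 founder or clone were not given in the sources used here, which record that the study asked how gene expression, above all of lipid metabolism, compares between the genotypes.

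Cytokines that bind receptors without a kinase of their own switch on JAK kinases held at the receptor tails, and the JAKs phosphorylate STAT proteins, which pair, enter the nucleus and switch on target genes. Among the targets are the genes of CISH and the SOCS proteins, which then bind the receptors or the JAKs and shut the signal down, and PIM1, a serine/threonine kinase that favours cell survival. In blood cells, STAT5A and STAT5B follow IL-2, IL-7 and GM-CSF, STAT3 follows IL-6 and IL-10, STAT4 follows IL-12, and STAT6 follows IL-4.

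Of the 19 probes, 18 stood well above background on 3 or more of the 6 arrays and entered the fit, and 16 did so on all arrays. No member probe passed an adjusted p of 0.05 in limma, against 0.172% of all 26814 probes fitted (0.0783% higher and 0.0932% lower), and the lowest adjusted p of a member was 0.337. At an unadjusted p under 0.05 there were 3 (16.7%), beside 12.8% of all probes. With array weights in limma 2 passed the adjusted threshold, beside 1972 of all probes. The lowest unadjusted p among the members belonged to STAT5A, at which all 3 fat-1 animals lay below all 3 wild type animals at 2 of 3 probes. CISH was the only fitted member probe at which all fat-1 animals lay above all wild type animals. In either direction, 4 of 18 member probes (22.2%) had no overlap, beside 19.6% of all probes. The 3 probes of SOCS1 had differences between -0.83 and -0.74 on the log2 scale, with overlapping animals, while STAT5B, STAT6, SOCS2 and PIM1 had differences between -0.07 and 0.15.

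The sequences that carry these observations are printed here from the array annotation, 5′ to 3′. The file headers give positions on the build Btau_3.1, and exons and untranslated regions were not assigned. STAT5A and STAT5B are close copies beside each other on chromosome 19, so 2 STAT5A probes are shown whole. The probe with the lowest p, A_73_P250836, lies at chr19:43747685-43748744, and A_73_P053856, whose annotation also lists a STAT5B transcript, at chr19:43734488-43734547, both on the plus strand.
STAT5A A_73_P250836: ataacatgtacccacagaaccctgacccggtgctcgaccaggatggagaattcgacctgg
STAT5A A_73_P053856: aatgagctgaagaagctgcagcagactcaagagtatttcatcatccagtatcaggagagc
The first 30 bases of the other STAT5A probe, at chr19:43748935-43748993, and of the STAT5B probe, at chr19:43655286-43655345 on the minus strand, are given beside them.
STAT5A A_73_114121: gttttgtatttgtatctctgtgcatactga
STAT5B A_73_106938: ctcgtcgccatctctagcttcttcatcctt

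Of the 3 SOCS1 probes, on the minus strand of chromosome 25, 2 are nearly the same oligo: A_73_115229 and A_73_P457711 share 40 bases with 1 mismatch. A_73_P058206 (chr25:10957083-10957142) shares no stretch with them and is printed whole, as the separate measurement of the gene.
SOCS1 A_73_P058206: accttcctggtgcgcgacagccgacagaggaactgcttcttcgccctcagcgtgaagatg
A pair of STAT3 probes, at chr19:43753094-43753153 and chr19:43753088-43753147 on the minus strand, shares 54 bases with 3 mismatches, in capitals in the 30 shared bases printed.
STAT3 A_73_P102211: gcaaataaGaatacacgctccacaCctgaG
STAT3 A_73_P411291: gcaaataaAaatacacgctccacaActgaA
The first 30 bases are given for the CISH probe, at chr22:50661539-50661598, the one with all fat-1 animals higher, and for the STAT4 probe, at chr2:83519329-83519388 on the minus strand, whose annotation disagrees with itself.
CISH A_73_120172: agtttagtagtctttttattttcactgctt
STAT4 A_73_P094731: gtctaagtgttctgagttcccattccttgg

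Levels below are log2 of the processed intensity relative to the 75th percentile of the same array, animals are listed as replicates 1, 2 and 3, and differences are fat-1 minus wild type with the standard error of the limma fit. Levels of different probes are not comparable. That percentile was at an intensity of 716, 746 and 1067 for the fat-1 animals, against 744, 613 and 887 for the wild type animals. The fat-1 arrays were all on slide 1 and shared a recorded scan date, and the wild type arrays were all on slide 2 and shared another. Slide and scan thus cannot be told apart from genotype in any result. Whole blood mixes cell types, and fewer cells of a type cannot be told apart from less RNA per cell. With 3 animals a group, the median standard error of a difference was 0.25 over the member probes and 0.26 over all probes.

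Among the inhibitors, CISH binds activated receptors of the STAT5 pathway and blocks them. Its log2 level was 0.27, 0.26 and -0.03 in fat-1 blood, against -0.15, -0.17 and -0.48 in wild type blood. Every fat-1 animal lay above every wild type animal, the gap between the groups being narrow beside the spread within each. The difference was 0.43 ± 0.21, which is 1.35-fold higher, with an unadjusted p of 0.0760 and an adjusted p of 0.414 in limma, and its 95% interval ran from -0.06 to 0.92.

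SOCS1 binds JAK kinases through its kinase inhibitory region and restrains interferon and common gamma chain cytokine signals. At A_73_P457711 the log2 level was 0.27, 0.90 and 0.61 in fat-1 blood, against 1.36, 2.05 and 0.77 in wild type blood. Wild type replicate 3 lay inside the range of the fat-1 animals, and the other two wild type animals lay above it. The difference was -0.80 ± 0.34, or 1.74-fold lower, with an unadjusted p of 0.0460 and an adjusted p of 0.387 in limma.

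The other SOCS1 probes ordered the groups in a like way. A_73_115229 had log2 levels of 0.58, 1.29 and 0.85 in fat-1 blood, against 1.59, 2.37 and 0.98 in wild type blood, and differed by -0.74 ± 0.36 with an unadjusted p of 0.0746. The probe that shares no bases with them, A_73_P058206, had log2 levels of -4.48, -3.45 and -3.84 in fat-1 blood, against -3.05, -2.49 and -3.72 in wild type blood, and differed by -0.83 ± 0.37 with an unadjusted p of 0.0538. At all 3 probes fat-1 replicate 1 was lowest, wild type replicate 2 was highest, and wild type replicate 3 fell within the fat-1 range. Over the 6 arrays the SOCS1 probes correlated pairwise at 0.976 to 0.995, values that include the shared difference between groups and, for 1 pair, shared bases. The mean of the 3 probes differed by -0.79, with a two-sided exact permutation p of 0.2, where 0.1 is the smallest that 3 against 3 animals can give. Without wild type replicate 3, the difference of A_73_P457711 was -1.11, and without wild type replicate 2 it was -0.47.

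SOCS2, which restrains growth hormone signalling, had log2 levels of -0.64, -1.05 and -0.80 in fat-1 blood, against -0.60, -1.0 and -1.35 in wild type blood. The groups overlapped, and the difference was 0.15 ± 0.25 with a 95% interval from -0.43 to 0.73.

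SOCS3, which blocks gp130 receptors such as that of IL-6, was close to the limit of measurement. Its probe A_73_P044671, at chr19:55418135-55418194, was well above background on no fat-1 array and on 1 wild type array, that of replicate 1, and so was not fitted. The log2 levels were -4.35, -5.13 and -5.07 in fat-1 blood, against -4.18, -4.57 and -4.37 in wild type blood, and fat-1 replicate 1 lay within the wild type range. A second probe that RefSeq names assign to SOCS3 but the rule did not select, A_73_119322, was brighter. It had log2 levels of -3.35, -3.16 and -3.43 in fat-1 blood, against -3.05, -2.91 and -3.55 in wild type blood, with overlapping groups and a difference of -0.15 ± 0.24.

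**Figure D1:**
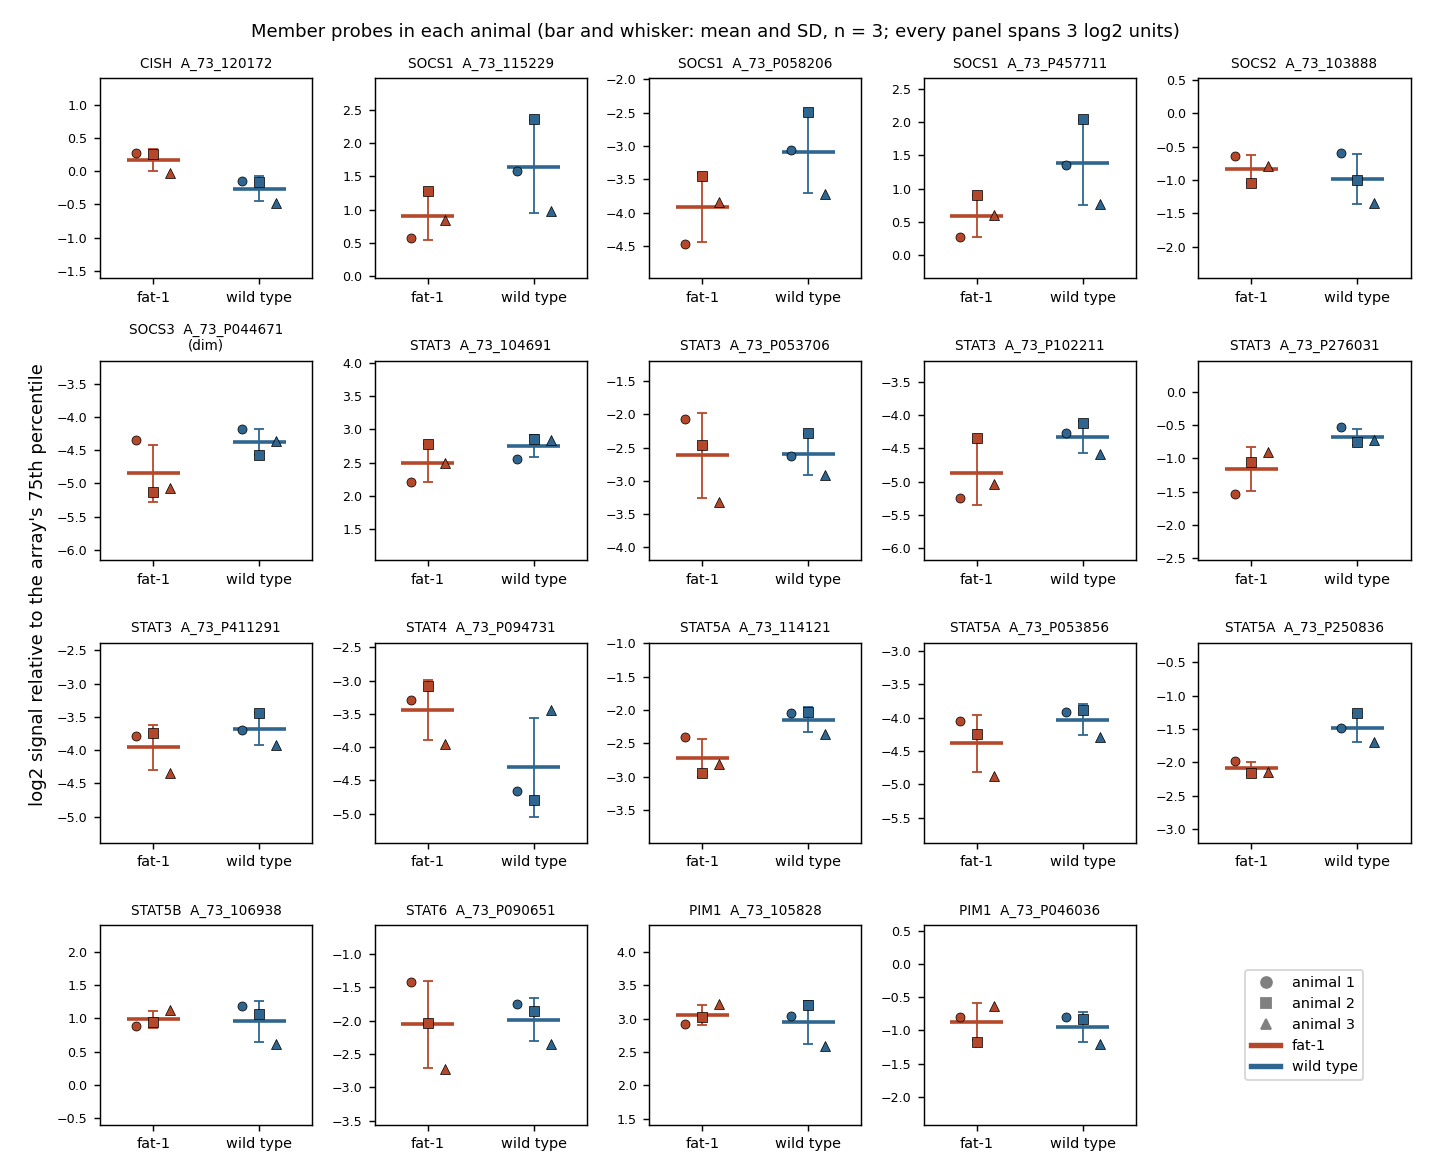
Log2 level of the member probes in each animal (vertical axis, log2 of processed intensity relative to the array's 75th percentile), with fat-1 animals left of wild type animals in each panel and 1 point per animal. The fat-1 points of STAT5A A_73_P250836 and A_73_114121 all lie below the wild type points, those of CISH all lie above, and wild type replicate 3 overlaps the fat-1 animals at the 3 SOCS1 probes.

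Among the transcription factors, STAT5A and STAT5B carry signals of IL-2, IL-7, GM-CSF, growth hormone and prolactin. At STAT5A A_73_P250836 the log2 level was -1.98, -2.15 and -2.15 in fat-1 blood, against -1.48, -1.26 and -1.70 in wild type blood. The fat-1 animals lay close together and below every wild type animal. The difference was -0.61 ± 0.21, or 1.53-fold lower, with a 95% interval from -1.10 to -0.13. Its unadjusted p of 0.0191 was the 1519th smallest among the 26814 probes fitted, and its adjusted p was 0.337 in limma.

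The second STAT5A probe, A_73_114121, also had no overlap. Its log2 level was -2.40, -2.95 and -2.81 in fat-1 blood, against -2.04, -2.03 and -2.36 in wild type blood, fat-1 replicate 1 and wild type replicate 3 lying almost level. The difference was -0.58 ± 0.23, with an unadjusted p of 0.0370 and an adjusted p of 0.375 in limma. At A_73_P053856, the probe whose annotation lists STAT5B as well, the log2 level was -4.04, -4.25 and -4.87 in fat-1 blood, against -3.91, -3.88 and -4.30 in wild type blood. Here the groups overlapped, 2 of 3 wild type arrays were well above background, and the difference was -0.36 ± 0.27 with an unadjusted p of 0.221. The mean of all 3 STAT5A probes differed by -0.52, with a two-sided exact permutation p of 0.1, the smallest possible.

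STAT5B did not show the order seen at STAT5A. Its log2 level was 0.89, 0.94 and 1.13 in fat-1 blood, against 1.19, 1.06 and 0.61 in wild type blood, and the fat-1 animals lay inside the wild type range. The difference was 0.03 ± 0.23, with a 95% interval from -0.49 to 0.56. A further STAT5B probe outside the rule, A_73_P206297, had a difference of 0.05 ± 0.29. The difference between the paralogues was taken within each animal, a contrast chosen after the values were seen. It was the mean of the 2 STAT5A probes without a STAT5B annotation minus STAT5B A_73_106938. On the log2 scale it was -3.08, -3.49 and -3.61 in fat-1 blood, against -2.95, -2.71 and -2.64 in wild type blood. The groups did not overlap, with a shift of -0.63, given as a description with no test because STAT5A already separated the groups.

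STAT3, which transmits IL-6, IL-10 and G-CSF signals, had 5 probes between positions 43751560 and 43771614 of chromosome 19, on the minus strand. The brightest, A_73_104691, had log2 levels of 2.21, 2.78 and 2.50 in fat-1 blood, against 2.55, 2.86 and 2.84 in wild type blood, with a difference of -0.25 ± 0.23. A_73_P276031 had log2 levels of -1.53, -1.05 and -0.90 in fat-1 blood, against -0.53, -0.75 and -0.73 in wild type blood, with a difference of -0.49 ± 0.23 and an unadjusted p of 0.0699. It was the only STAT3 probe at which the groups did not overlap.

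The remaining STAT3 probes gave differences of -0.01 ± 0.34 at A_73_P053706, -0.27 ± 0.25 at A_73_P411291 and -0.55 ± 0.28 at A_73_P102211. The last was well above background on 2 of 3 arrays in each group. The 5 probes did not move together, since their 10 pairwise correlations over the 6 arrays ran from -0.474 to 0.817. Their mean differed by -0.31, with a two-sided exact permutation p of 0.2 (smallest possible 0.1). A further STAT3 probe outside the rule, A_73_115616, had overlapping groups and a difference of -0.13 ± 0.20.

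STAT4, the factor that answers IL-12 in T and NK cells, had 1 probe under the rule, A_73_P094731. Its name and description fields do not give the same gene, so the values that follow may not be those of STAT4. Its log2 level was -3.29, -3.08 and -3.95 in fat-1 blood, against -4.66, -4.79 and -3.45 in wild type blood. Fat-1 replicate 3 and wild type replicate 3 went against their groups. The difference was 0.86 ± 0.39, with an unadjusted p of 0.0586 and an adjusted p of 0.396 in limma, and under the normexp background correction it was -0.09.

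A second probe that RefSeq names assign to STAT4, A_73_120343 at chr2:83428496-83428555, lay outside the rule. Its log2 level was 1.40, 1.71 and 1.39 in fat-1 blood, against 0.84, 0.69 and 1.80 in wild type blood, wild type replicate 3 again being the high one. The difference was 0.39 ± 0.31, with an unadjusted p of 0.245 in limma, and it was also 0.39 under normexp.

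STAT6, the factor of IL-4 and IL-13 signalling, had log2 levels of -1.41, -2.03 and -2.72 in fat-1 blood, against -1.75, -1.85 and -2.35 in wild type blood. The wild type range lay inside the fat-1 range, and the difference was -0.07 ± 0.35, with a 95% interval from -0.86 to 0.72.

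PIM1, like CISH and the SOCS genes, is a target of STAT proteins. At A_73_105828 its log2 level was 2.92, 3.02 and 3.22 in fat-1 blood, against 3.04, 3.20 and 2.59 in wild type blood, and the groups overlapped. The difference was 0.11 ± 0.23, with a 95% interval from -0.42 to 0.65, and at the second probe, A_73_P046036, it was 0.07 ± 0.24. The mean of the 2 probes differed by 0.09, with a two-sided exact permutation p of 0.7. The intervals of both probes include 0 and a rise of the size measured at CISH, so a rise of that size at PIM1 was not excluded.

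**Figure D2:**
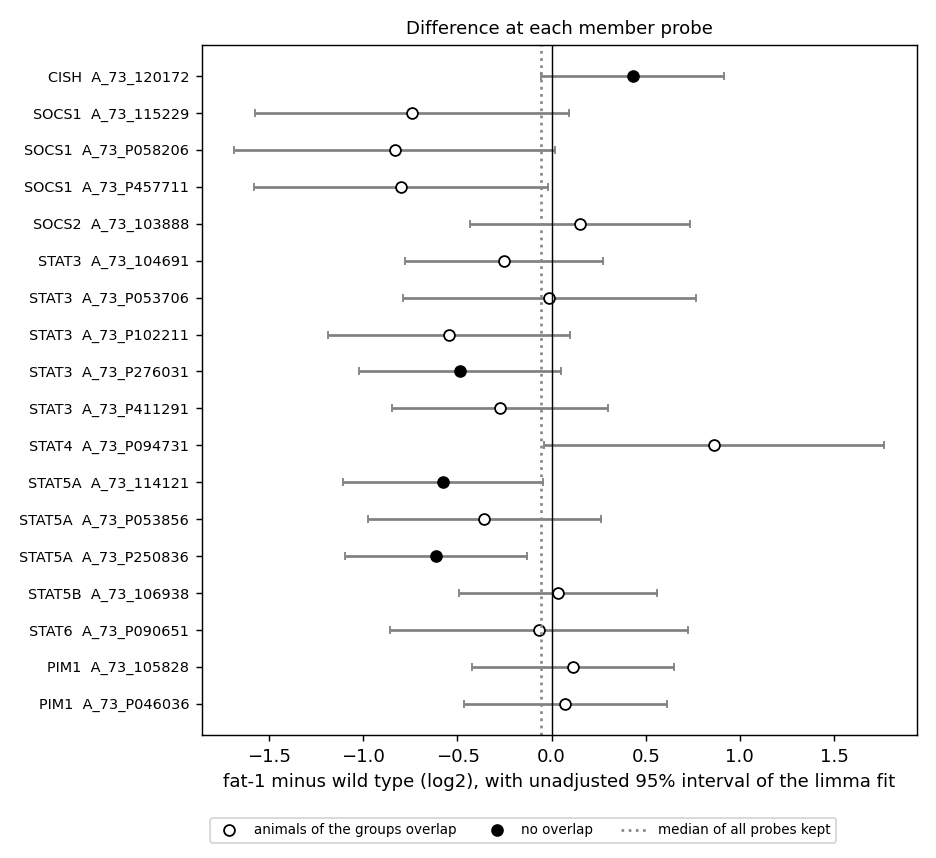
Difference, fat-1 minus wild type, of the 18 member probes fitted (horizontal axis, log2), with points for the estimate, bars for the unadjusted 95% interval of the limma fit and a dotted line for the median of all probes. Filled points mark the 4 probes whose groups do not overlap, and the interval excludes 0 at SOCS1 A_73_P457711, STAT5A A_73_114121 and STAT5A A_73_P250836.

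Over the fitted members, 6 differences were above 0 and 12 below, with a median of -0.26, beside a median of -0.06 over all probes, of which 55.3% were below 0. At an unadjusted p under 0.05, 3 of 18 member probes (16.7%) differed, all 3 lower in fat-1 blood, beside 12.8% of all probes in either direction, 6.18% being higher and 6.66% lower. The 3 probes belong to SOCS1 and STAT5A. Groups did not overlap at 4 of 18 member probes (22.2%), beside 19.6% of all probes (6.94% higher and 12.7% lower), and these were 1 higher probe, CISH, and 3 lower ones, STAT3 A_73_P276031 and 2 of STAT5A. Both shares were near those of the array as a whole. With 1 animal left out, the calls changed in number and in gene. Leaving out fat-1 replicate 1 gave 2 calls, both of STAT5A, beside 8.86% of all probes. Leaving out fat-1 replicate 2 gave 3 calls, 2 of SOCS1 and 1 of STAT3, beside 7.56%, and leaving out fat-1 replicate 3 gave 1, STAT4, which was higher, beside 12.4%. Leaving out wild type replicate 1 gave 0 calls, beside 8.48% of all probes, and leaving out wild type replicate 2 gave 1, of STAT5A, beside 8.77%. Leaving out wild type replicate 3 gave 6, which were 3 of SOCS1, 2 of STAT5A and STAT4, beside 23.3%. The count of probes without overlap was 10 without fat-1 replicate 2, beside 27% of all probes, and 11 without wild type replicate 3, beside 47.5%.

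**Figure D3:**
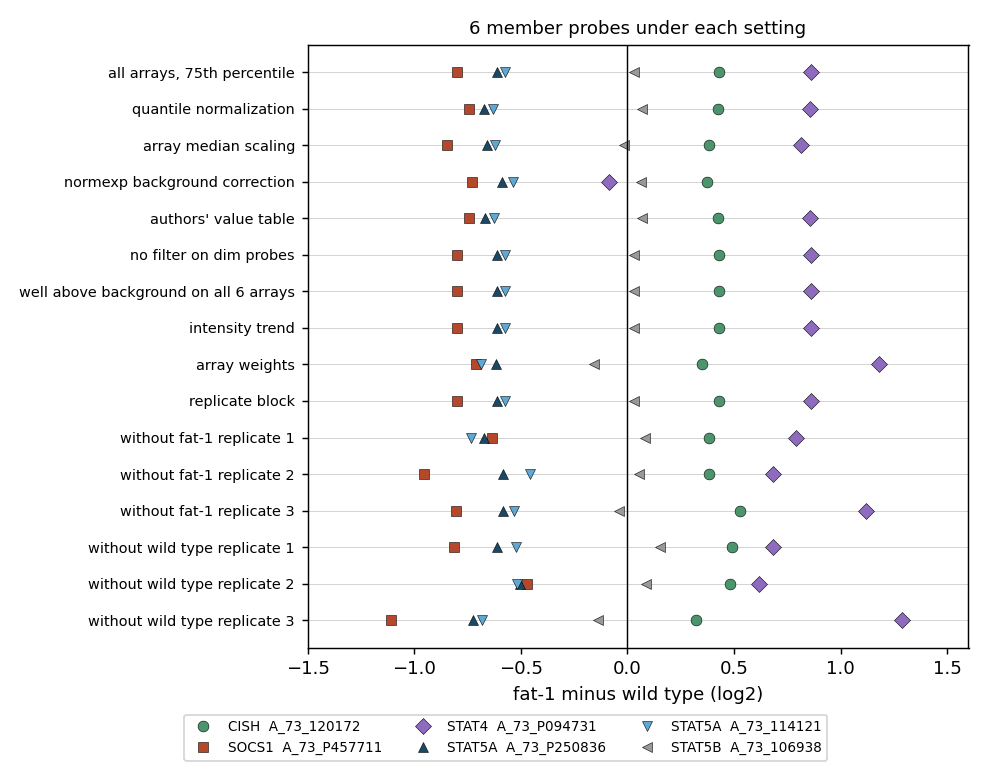
Difference, fat-1 minus wild type (horizontal axis, log2), of 6 member probes under each processing setting and with each animal left out, 1 marker per probe. SOCS1 and the 2 STAT5A probes stay below 0 and CISH above 0 in all settings drawn, and STAT4 A_73_P094731 is 0.86 with all arrays and -0.09 after normexp.

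The genes whose levels followed STAT5A A_73_P250836 most closely over the 6 arrays were PCSK1N (Pearson r 0.999), MIER2 (0.998), DOCK5 (0.997), MPND (0.997) and ZNF219 (0.997). They were the closest of all fitted probes with a symbol, and such values arise readily among so many probes on 6 arrays. Their differences were -0.51, -1.07, -0.65, -0.85 and -1.20 on the log2 scale, and none passed the adjusted threshold in limma. That all were lower in fat-1 blood follows from choosing genes that track this STAT5A probe.

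The rest of the pathway was read from gene lists, with the brightest probe of each gene. No listed gene passed an adjusted p of 0.05, against 0.167% of all 10802 genes, and 11.9% of all genes had an unadjusted p under 0.05 (5.56% higher and 6.37% lower). Groups did not overlap at 20.4% of all genes. Of the JAK kinases 3 of 4 were measured, none at an unadjusted p under 0.05, with a median difference of -0.02 (0.15 after quantile normalization). JAK2, the kinase of growth hormone, erythropoietin and interferon gamma receptors, had a difference of 0.81 ± 0.38 with an unadjusted p of 0.0620, which was 0.19 under normexp, and JAK1 had -0.09. Of the other SOCS genes 3 of 4 were measured, with a median of 0.10 (-0.36 under normexp) and values of 0.47 for SOCS4 and 0.10 for SOCS5, which turned to -0.28 and -0.36 under normexp. The interferon factors STAT2 and IRF9 had differences of -0.04 and -0.15. The median over all genes was -0.08.

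Among PIAS proteins, tyrosine phosphatases and other negative regulators, all 11 were measured and 1 differed at an unadjusted p under 0.05. This was CBL, a ubiquitin ligase, with 0.66 ± 0.24 and a p of 0.0239 in limma, and 0.28 under normexp, while its second probe had -0.29. Of the receptor chains 21 of 36 were measured and 1 differed at its brightest probe. IL2RG, the common gamma chain shared by the receptors of IL-2, IL-4, IL-7 and IL-15, had log2 levels of 3.72, 3.89 and 3.79 in fat-1 blood, against 4.34, 4.52 and 4.03 in wild type blood. The groups did not overlap, and the difference was -0.50 ± 0.22, with an unadjusted p of 0.0473 in limma. At dimmer probes, other receptor chains also had an unadjusted p under 0.05. IFNGR1 was higher at A_73_115260 and A_73_P048331 (0.77 at each), against 0.29 at its brightest probe. Lower were 1 probe each of IL2RA (-0.72), IL27RA (-0.59) and IL21R (-0.51), against -0.43, -0.48 and -0.15 at their brightest.

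Of the cytokine ligands 9 of 32 were measured, with TSLP higher and IL10 lower at an unadjusted p under 0.05, not counting IFNG, whose wild type values were not well above background. IL10, which signals through STAT3, had log2 levels of -1.29, -1.41 and -1.27 in fat-1 blood, against -0.65, -0.41 and -0.33 in wild type blood. The groups lay apart, with a difference of -0.86 ± 0.20 and an adjusted p of 0.185 in limma, and a second IL10 probe had -1.44 ± 0.27 with an adjusted p of 0.107. TSLP, a cytokine that signals through STAT5, had log2 levels of 1.46, 1.21 and 1.75 in fat-1 blood, against 0.72, 0.87 and 0.81 in wild type blood, again without overlap.

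IFNG, the product of cells driven by STAT4, had log2 levels of -3.12, -3.27 and -1.91 in fat-1 blood, against -6.81, -5.28 and -4.83 in wild type blood. It was well above background on all 3 fat-1 arrays and on no wild type array. In processed intensity it was 4.97-fold higher, with each wild type value raised to its array's dimmest probe well above background where lower. That raised only replicate 1, from -6.81 to -5.12, so the 4.97-fold is not a strict lower bound. The probe met the filter of 3 arrays only through the fat-1 arrays, so its p in the fit is not given. The difference under normexp was 0.59. A second IFNG probe was well above background on 1 fat-1 array only.

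Of the STAT5 and STAT3 targets 25 of 30 were measured, with a median difference of -0.27, none higher and 3 lower at an unadjusted p under 0.05. IER3, a regulator of cell survival, had log2 levels of 1.09, 0.81 and 0.74 in fat-1 blood, against 1.56, 2.79 and 2.44 in wild type blood, and differed by -1.38 ± 0.32 with an adjusted p of 0.185 in limma. JUNB and FOS, subunits of the AP-1 factor, had differences of -0.81 ± 0.27 and -1.40 ± 0.48. All 3 genes also belong to the immediate-early genes, which answer many stimuli besides STATs. Of the genes of STAT4 and STAT6 lineages 10 of 16 were measured, with a median of -0.14. Besides IFNG, 1 had an unadjusted p under 0.05 at its brightest probe, MAF, a T helper factor, with -0.61 ± 0.24. A dimmer probe of CCR4 had -0.61 ± 0.26 with an unadjusted p of 0.0479 in limma, against -0.28 at its brightest.

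**Figure D4:**
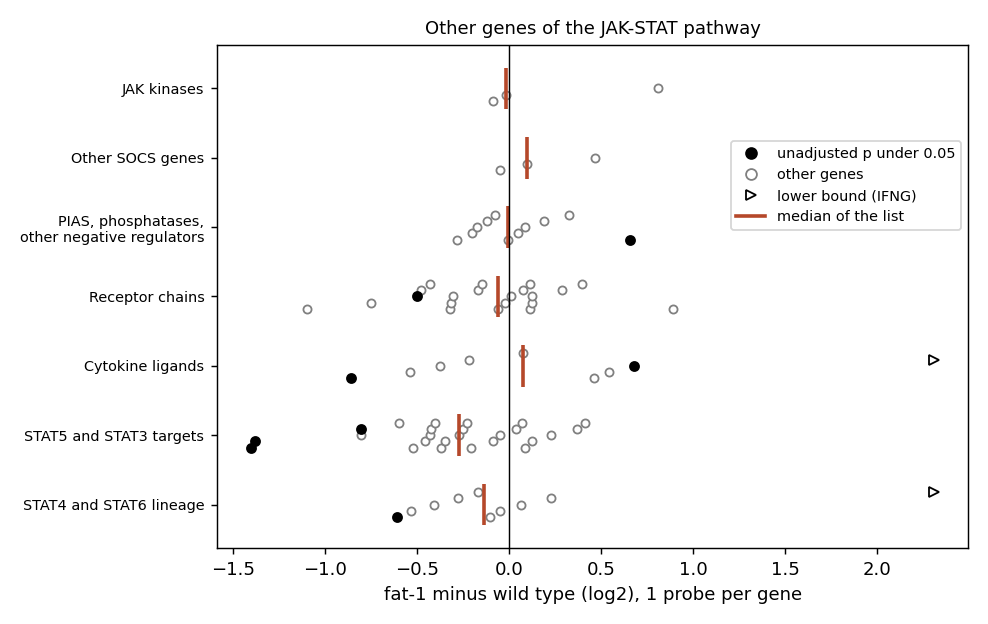
Difference, fat-1 minus wild type (horizontal axis, log2), of the measured genes of 7 pathway lists, 1 point and 1 probe per gene, with filled points at an unadjusted p under 0.05 and a bar at the list's median. IFNG, in both the ligand and the STAT4 and STAT6 lists, is drawn as an open triangle at 4.97-fold. The key calls this a lower bound, though only the value of wild type replicate 1 was raised for it. The 3 filled points of the STAT5 and STAT3 targets, IER3, JUNB and FOS, lie below 0.

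Some marker lists differed between the groups in the direction of SOCS1 and STAT5A, and others lay mostly the opposite way. The lists were chosen with earlier results of these data known, so their counts by direction are description only. How far each gene is particular to the cell type of its list was not tested. Over all genes, 6.37% were lower at an unadjusted p under 0.05 in limma, and 55.3% of all probes were below 0. Immediate-early genes were below 0 at 16 of 16 measured genes, 10 of them at an unadjusted p under 0.05, and their summed level, in multiples of the array's 75th percentile, was 142 to 189 in fat-1 blood and 232 to 352 in wild type blood. Gamma-delta T cell genes were below 0 at 7 of 7, with summed levels of 21.2 to 58.4 in fat-1 blood and 66.2 to 106 in wild type blood, TRDC not being measured. Both lists were lowest in fat-1 replicate 1 and highest in wild type replicate 2 by mean log2 level, the animals that were lowest and highest for SOCS1. At STAT5A the order differed, since fat-1 replicate 1 was the highest fat-1 animal at A_73_P250836 and A_73_114121, while wild type replicate 2 was again the highest of all.

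Alpha-beta T cell genes were below 0 at 8 of 10, with summed levels of 116 to 160 in fat-1 blood and 162 to 248 in wild type blood. By mean log2 level this list too was lowest in fat-1 replicate 1 (2.07) and highest in wild type replicate 2 (2.85), but the groups overlapped. Fat-1 replicates 2 and 3 (2.56 each) lay above wild type replicates 1 (2.25) and 3 (2.44). None of the 10 genes had an unadjusted p under 0.05 in limma. No marker gene passed the adjusted threshold, and the part of these lists in the SOCS1 and STAT5A values was not tested. The summed levels of the groups overlapped for the lists of neutrophils (486 to 699.5 in fat-1 blood, 465 to 622 in wild type blood) and monocytes (560 to 744 in fat-1 blood, 505 to 726 in wild type blood). They also overlapped for B cells (41.9 to 53.9 in fat-1 blood, 46.2 to 90.9 in wild type blood), NK cells (40.2 to 83.0 in fat-1 blood, 35.2 to 58.2 in wild type blood) and platelets (126 to 204 in fat-1 blood, 131 to 173 in wild type blood). Red cell genes ranged from 530.3 to 1033 in fat-1 blood and from 98.3 to 1224 in wild type blood. Differences were above 0 at 6 of 6 platelet genes, 8 of 10 monocyte genes and 5 of 8 NK cell genes. They were also above 0 at 5 of 7 red cell genes and 4 of 7 neutrophil genes, but at only 2 of 6 B cell genes. At an unadjusted p under 0.05 in limma, 2 NK cell genes were higher and 1 lower. Measured genes numbered 7 of 12 for neutrophils, without CSF3R, CXCR1, CXCR2, FPR1 and CTSG, 10 of 10 for monocytes, 6 of 8 for B cells, 8 of 8 for NK cells, 6 of 8 for platelets, 7 of 8 for red cells and 1 of 7 for eosinophils. Each of these cell types thus had at least 1 marker above background, which for eosinophils was CCR3.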

How the data were processed

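Total RNA from whole blood of 3 fat-1 and 3 wild type cattle was labelled with Cy3 and hybridised to 1 Agilent array per animal, per the labels' protocols. The deposited scanner files hold spot intensity from Agilent Feature Extraction 10.7.1.1, per the file headers and the submitters' processing notes, background-subtracted but not scaled between arrays. Other deposited columns used were the flags of outlying, saturated and well-above-background spots. The authors' deposited value table holds log2 values, centred alike on each array (median 6.38), with their making not given in the sources used here, and served as an alternative.

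The log2 of the processed intensity was scaled by subtracting the 75th percentile of the array's non-control spots, and spots of a probe were averaged. Probes with an outlier flag (48) were dropped. The 26814 probes that stood well above background on 3 or more arrays were fitted in limma 3.58.1 (lmFit, eBayes; R 4.3.3), group as the only term, with Benjamini-Hochberg adjustment over all of them. Means over the probes of a gene were tested by exact permutation over the animals. The fit was tested on simulated data with independent noise and differences of 2 and 4 on the log2 scale. It recovered 72% and 99% of these, with 4 false calls. All member differences were smaller, so recovery at their size was not tested. The file of wild type replicate 2 keeps 3 significant digits, against 7 in the others.

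Symbols came from RefSeq (assembly ARS-UCD2.0) by accession for 22205 probes, by symbol for 9847 and by an older symbol for 372, and 11229 had none. All member probes are named. Of each pathway list, up to 4 genes with the smallest unadjusted p under 0.05 are named, or else the 2 with the smallest p. The 5 genes closest to the member probe with the smallest p, by Pearson r, are also named. The members and lists were chosen with earlier results of these data known. 1 pathway gene and 1 pair of probe sequences are not reported here. A planned search of promoters for a STAT motif was not run, since no promoter sequences were used here. The alternatives were other scalings, the normexp background correction, other filters and variance models, array weights, a replicate block and each animal left out.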

Additional observations from a re-analysis of the deposited data

How the results depend on the processing

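No member probe passed the adjusted threshold except with array weights, where 2 did, STAT4 A_73_P094731 (1.18) and STAT5A A_73_P250836 (-0.62). Over all probes, 46 passed, which became 16 with quantile normalization and with the authors' table, 125 with array median scaling, 116 with normexp, 14 without a filter on dim probes, 121 with an intensity trend, 1972 with array weights and 8 to 55 with 1 animal left out. Normexp turned the split to 35 higher and 81 lower, against 21 higher and 25 lower, and the filter of all 6 arrays to 20 higher and 41 lower. At an unadjusted p under 0.05 there were 3443, against 8791 with array weights and 2028 to 6243 with 1 animal left out, and normexp turned their split to 753 higher and 2088 lower, against 1657 higher and 1786 lower. Same-numbered animals correlated at 0.118, 0.185 and 0.00574 in their deviations, and animals of unlike number at -0.206 to 0.0767. With 3 animals a group, these values cannot settle whether the numbers pair the animals. A replicate block gave 105 probes past the adjusted threshold and 5 member probes at an unadjusted p under 0.05. The member count of 3 was 5 with array median scaling, with normexp and with the filter of all 6 arrays, 8 with array weights and 0 to 6 with 1 animal left out. Member probes without overlap numbered 4 to 11 with 1 animal left out. The pathway genes at an unadjusted p under 0.05 numbered 9 with IFNG, which met the filter only through the fat-1 arrays. They numbered 22 with array weights and 6 to 14 with 1 animal left out, 14 being without wild type replicate 3. STAT4 A_73_P094731 turned to -0.086 with normexp and STAT5B to -0.014 with array median scaling. With array weights SOCS2 turned to -0.19, STAT3 A_73_P053706 to 0.016, STAT5B to -0.16 and PIM1 A_73_P046036 to -0.075. With 1 animal left out, differences ran from -0.28 to 0.34 for STAT3 A_73_P053706, -0.14 to 0.15 for STAT5B, -0.39 to 0.27 for STAT6, -0.034 to 0.34 for SOCS2, -0.065 to 0.24 for PIM1 A_73_105828 and -0.057 to 0.23 for PIM1 A_73_P046036. The causes of these shifts were not tested. Of 268 single-probe values under 15 alternatives, 250 kept their direction and side of the adjusted threshold. The median of all probes shifted from -0.06 to -0.02 with quantile normalization and -0.15 with normexp. Intensity near background limits SOCS3, STAT4 A_73_P094731 and the dimmest probes of STAT3 and STAT5A.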
